A study of Mus musculus with 8 samples.

Results

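The Hox genes are the transcription factors that give the embryonic body its order from head to tail. They stand in 4 clusters, HoxA to HoxD, and carry a paralogue number from 1 to 13 that follows both their order on the chromosome and, at large, the order of their domains along the body axis. Fibroblasts of adult skin are known to keep much of the Hox pattern of the site they come from when they are grown in culture. The genes described here are all rows of the table whose symbol is Hox, a cluster letter and a number, 28 of 15111 genes. The annotation holds 39 Hox genes, and the 11 others were not analysed here.

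Dermal fibroblasts were isolated from back skin, with the epidermis left on, of adult mice fed with tamoxifen. By the paper's methods they were first grown in medium with calf serum. They were then kept for 72 h in serum-free medium on fibronectin. TGFβ1FKO fibroblasts (4 libraries) carried *Tgfb1* fl/fl with the *Col1a2-CreERT* transgene, in which tamoxifen activates a Cre recombinase driven by the collagen *Col1a2* promoter, and control fibroblasts (4 libraries) carried *Tgfb1* fl/fl without Cre. Tamoxifen feeding and the floxed alleles were thus shared by both groups, whereas the Cre transgene and the loss of *Tgfb1* came together. The sources used here do not state whether each library stands for a separate mouse, so the p-values measure the spread between these libraries.

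The targeted gene was checked first. *Tgfb1*, the deleted growth factor, had 1298 to 1483 normalised counts in control and 228.4 to 326.4 in TGFβ1FKO libraries (log2 fold change -2.31 ± 0.10 SE, limma adjusted p = 1.53e-07). Normalised counts are reads per gene scaled by each library's size factor. The reads on the listed genes summed to between 16988998 and 23071528 per library. All 11 fibroblast markers of a list had rows and none passed the test, with *Col1a1* at 599000 to 725200 normalised counts in control and 626700 to 688700 in TGFβ1FKO libraries. Of the markers of other cells, those of Schwann cells moved with the genotype. All 7 with a row were lower in TGFβ1FKO fibroblasts and 3 passed the test, where 0.086% of all genes did. The groups did not overlap in 6 of them, against 3.79% of all genes. Their summed level was 1510 to 2312 normalised counts in control and 744.8 to 1628 in TGFβ1FKO libraries. Most of this sum came from the marker whose groups overlapped. The endothelial markers, 9 of 9 with a row, were all lower without a call (668.6 to 1081 in control and 679.1 to 713.3 in TGFβ1FKO libraries as a sum), and 2 of them had an unadjusted p under 0.05. Of all genes, 7.46% had one. Of the markers of keratinocytes, macrophages, melanocytes, pericytes, muscle and adipocytes with a row, 0 were called. An unadjusted p under 0.05 was found for 3 of 5 keratinocyte markers (*Dsp* and *Trp63* higher, *Itgb4* lower) and 2 of 7 pericyte and smooth muscle markers (*Myh11* higher, *Cspg4* lower), and for 0 of the other 4 lists. The share over all genes was again 7.46%. *Myh11*, the smooth muscle myosin, had a log2 fold change of 0.71 ± 0.13 SE without overlap of the groups (limma adjusted p = 0.0649). *Krt5* and *Krt14* of keratinocytes, *Ptprc* and *Adgre1* of macrophages and *Myod1* of muscle had no row, so these defining markers were not analysed here.

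All Hox proteins bind DNA through the homeodomain, which is encoded by the homeobox, a stretch of 180 bases in the last exon of each of the 28 genes. The homeoboxes below belong to the gene with the highest level in the central groups 4 to 8 (*Hoxc6*) and in the tail-end groups 9 to 13 (*Hoxb9*), and to *Hoxc13*, the Hox gene with the lowest p-value between groups. They were read from the GENCODE M21 transcripts (GRCm38), 5′ to 3′ on the coding strand, and the 18 bases in capitals encode part of the third helix, which lies in the major groove of the DNA.
Hoxc6 (chr15:103010754-103010933, plus strand, exon 2): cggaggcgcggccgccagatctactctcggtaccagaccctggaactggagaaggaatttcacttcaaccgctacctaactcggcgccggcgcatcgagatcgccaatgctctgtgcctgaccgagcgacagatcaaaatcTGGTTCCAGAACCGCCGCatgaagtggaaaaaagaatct
Hoxb9 (chr11:96274659-96274838, plus strand, exon 2): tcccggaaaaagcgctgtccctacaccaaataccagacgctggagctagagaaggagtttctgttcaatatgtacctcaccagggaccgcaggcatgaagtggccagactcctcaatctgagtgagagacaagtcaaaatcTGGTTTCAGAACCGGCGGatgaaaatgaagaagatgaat
Hoxc13 (chr15:102927210-102927389, plus strand, exon 2): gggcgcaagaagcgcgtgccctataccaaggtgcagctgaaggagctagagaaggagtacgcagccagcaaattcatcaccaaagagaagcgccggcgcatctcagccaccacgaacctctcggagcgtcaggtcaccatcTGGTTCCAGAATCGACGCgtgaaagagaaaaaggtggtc

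*Hoxc6* and *Hoxb9* shared 60.6% of the bases of the homeobox, whereas *Hoxc6* and *Hoxc13* shared 51.1%. Over the 22 pairs of the same paralogue group the median identity was 82.8%, and over the 356 other pairs it was 62.8%. The longest stretch of identical bases at the same position of any pair was 52 (*Hoxa6* and *Hoxb4*), which is shorter than the reads of 150 bases. Overlap between annotated genes is another limit, because the libraries were non-directional and a read from an antisense gene cannot be told apart from a read of the Hox gene. *Hoxb3* shares 52.9% of its exon bases with other annotated genes, *Hoxa11* 35.0%, *Hoxb2* 27.3% and *Hoxa3* 27.1%, so the values of these genes are less certain than those of *Hoxc6*, *Hoxc8* or *Hoxb9*, which share none.

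The first question was which body position the cultured fibroblasts carried in their Hox pattern. Levels are compared between genes as normalised counts per kb of merged exon length, and in such bulk libraries fewer cells with a Hox transcript and less of it per cell cannot be told apart. *Hoxc6* had the highest level (mean of 8 libraries, 512.5 per kb), followed by *Hoxc8* with 394.4 and *Hoxb9* with 240.0. These genes are known for the thoracic part of the axis. *Hoxc10* with 196.7, *Hoxc9* with 167.7 and *Hoxd8* with 118.5 per kb came next, and no other Hox gene passed 100 per kb. *Hoxc6*, *Hoxc8* and *Hoxb9* were separated from each other by more than the spread over the libraries, whereas *Hoxc10* was not separated from *Hoxb9*, nor *Hoxc9* from *Hoxc10*. Over all 28 genes, 21 of the 27 neighbouring pairs were not separated in this sense.

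**Figure D1:**
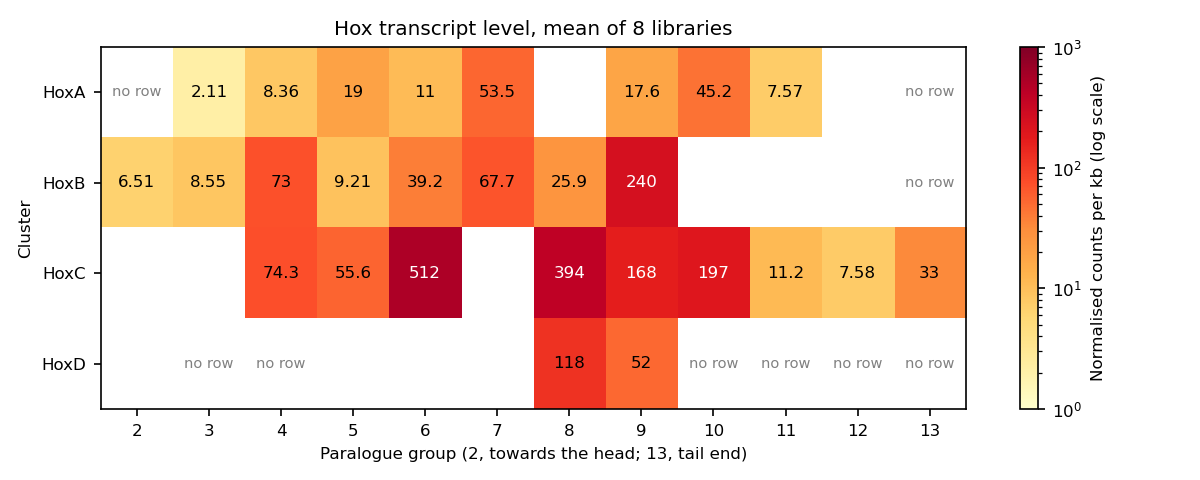
Level of each Hox gene (normalised counts per kb, mean of 8 libraries, logarithmic colour scale) by cluster (rows) and paralogue group (columns, groups 2 to 13); annotated genes not analysed here are marked as having no row, and empty fields hold no gene. The highest levels stand in groups 6 to 10 of HoxC, in *Hoxb9* and in *Hoxd8*.

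By cluster, HoxC carried most of the Hox signal. All 9 annotated genes of HoxC (chr15:102921103-103036852) had a row, as did 9 of 11 of HoxA (chr6:52155590-52260880), 8 of 10 of HoxB (chr11:96194316-96368256) and 2 of 9 of HoxD (chr2:74668310-74765142), all on GRCm38. HoxC gave 64.1% ± 2.25 (SD, n = 4) of the summed Hox level per kb in control and 63.9% ± 1.82 (SD, n = 4) in TGFβ1FKO fibroblasts. HoxB gave 20.80% ± 2.23 and 20.48% ± 2.85, HoxD 7.57% ± 1.35 and 7.51% ± 1.09, and HoxA 7.49% ± 1.01 and 8.16% ± 0.175 (SD, n = 4 each). The share of each cluster overlapped between the groups. The summed level of all Hox genes was 2136 to 2452 per kb in control and 2186 to 2348 per kb in TGFβ1FKO libraries.

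By paralogue group, the profile had peaks at group 6 and at groups 8 to 9. Group 6 gave 25.6% ± 1.97 of the summed level in control and 24.0% ± 1.30 in TGFβ1FKO fibroblasts, group 8 gave 24.3% ± 2.40 and 23.3% ± 1.09, and group 9 gave 20.7% ± 1.79 and 21.3% ± 1.78 (SD, n = 4 each). Group 7, which has no gene in HoxC or HoxD, lay between these peaks with 5.29% ± 0.652 and 5.41% ± 0.348. Groups 6 to 9 together made up 70.7 to 79.3% in control and 73.6 to 74.3% in TGFβ1FKO libraries. The head-end groups 1 to 3 together made up 1.18 to 1.79% and 1.02 to 1.51%, so that these groups were close to the bottom of the profile in every library. Group 4 gave more, with 6.98% ± 0.442 in control and 6.73% ± 0.674 in TGFβ1FKO fibroblasts (SD, n = 4 each). Groups 10 to 13 made up 15.65, 8.66, 13.95 and 10.13% in control replicates 1 to 4, and 14.08, 13.04, 14.91 and 15.25% in TGFβ1FKO replicates 1 to 4. The control libraries spread wider than the TGFβ1FKO libraries in this share, and the groups overlapped.

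**Figure D2:**
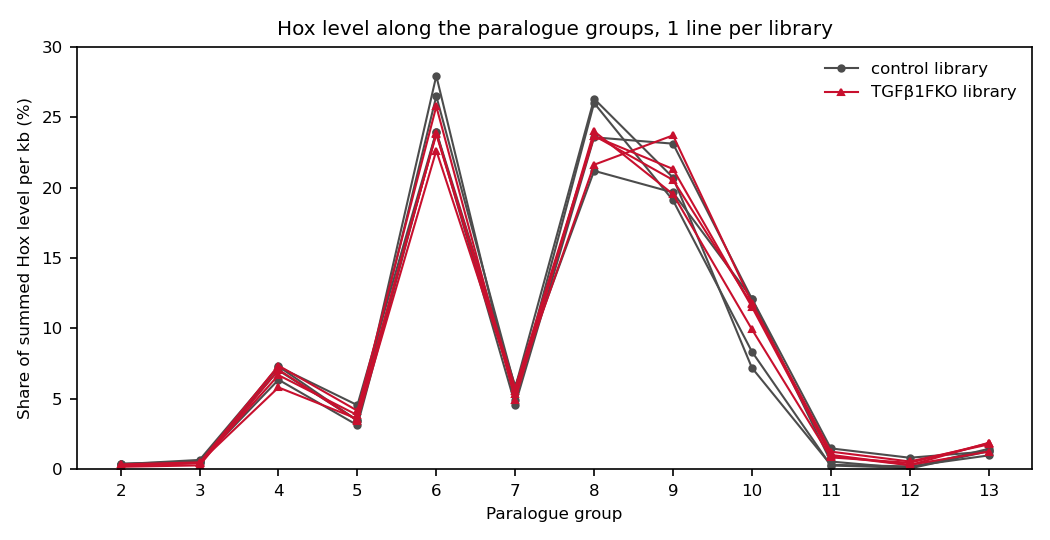
Share of the summed Hox level per kb (%) by paralogue group from 2 to 13, with 1 line per library (grey, control; red, TGFβ1FKO). The 8 lines share the peaks at group 6 and groups 8 to 9, and at group 10 they spread from 7.20 to 12.1%, both ends being control libraries.

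The head-end genes were low. *Hoxb2*, which acts in the hindbrain, had 27.5, 24.4, 33.3 and 19.8 normalised counts in control replicates 1 to 4, and 20.3, 17.6, 13.3 and 25.5 in TGFβ1FKO replicates 1 to 4. *Hoxa3*, known for the pharyngeal arches and the thymus, had between 6.64 and 21.3 normalised counts in all libraries and the lowest level per kb of the 28 genes (2.11). The values of the groups overlapped in both genes.

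*Hoxb3* was the member with the largest downward difference. It had 50.8, 42.5, 42.1 and 34.6 normalised counts in control, and 26.4, 34.2, 21.6 and 38.8 in TGFβ1FKO libraries. The 3 highest values were those of control replicates 1 to 3, and the lowest control library lay inside the TGFβ1FKO range. The log2 fold change was -0.50 ± 0.23 SE, with limma's p = 0.0488 before and 0.669 after adjustment over all genes, and the two-sided exact permutation test of 4 against 4 gave p = 0.0571, where 0.0286 is the smallest p it allows. *Hoxb3os*, an antisense gene that overlaps *Hoxb3* and *Hoxb2*, had 6.02, 17.0, 1.11 and 15.8 normalised counts in control and 2.03, 2.07, 0.830 and 3.32 in TGFβ1FKO libraries, which is 1 to 16 reads, and its part in the values of *Hoxb3* was not tested.

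In the central groups, the abundant genes were steady. *Hoxc6* had 1177, 1255, 1292 and 1362 normalised counts in control and 1175, 1314, 1140 and 1159 in TGFβ1FKO libraries (log2 fold change -0.09, 95% confidence interval -0.23 to 0.05). *Hoxc8* had 902.4, 1238, 1220 and 1218 in control and 1141, 1095, 1069 and 1054 in TGFβ1FKO libraries (-0.06, -0.26 to 0.14). Control replicate 1 was the lowest of all libraries for *Hoxc8*, while the other control libraries were all above the TGFβ1FKO libraries. *Hoxd8* ranged from 287.2 to 363.0 in control and from 275.7 to 377.0 in TGFβ1FKO fibroblasts.

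The group 4 and 5 genes of HoxC and *Hoxb4* stood in the middle of the order. *Hoxc4* had 172.1 to 211.6 normalised counts in control and 167.3 to 210.2 in TGFβ1FKO libraries, and *Hoxb4*, known from blood stem cells, had 183.0 to 198.7 and 135.2 to 219.2. *Hoxc5* had 182.4, 146.6, 145.3 and 168.9 in control and 191.6, 198.8, 170.2 and 170.6 in TGFβ1FKO libraries, with a log2 fold change of 0.19 (95% confidence interval -0.06 to 0.43). *Hoxa7* had 128.2 to 162.0 and 152.0 to 181.2, *Hoxb7* 79.0 to 138.5 and 74.6 to 120.4, and *Hoxb6* 55.3 to 103.2 and 51.8 to 96.3 normalised counts in control and TGFβ1FKO libraries. None of these genes separated the groups.

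The remaining central genes were low or uneven between libraries of the same group. *Hoxb8* had 83.5, 53.1, 113.1 and 40.5 normalised counts in control and 68.9, 43.5, 78.9 and 65.4 in TGFβ1FKO libraries. *Hoxb5* had 61.1 in control replicate 1 and 13.8 to 24.4 in the other control libraries, and 14.95 to 36.25 in TGFβ1FKO libraries. *Hoxa5*, known for the vertebrae between neck and thorax and for the lung, ranged from 30.6 to 42.2 and from 30.03 to 38.20, *Hoxa4* from 8.50 to 15.5 and from 12.4 to 17.4, and *Hoxa6* from 4.301 to 14.87 and from 3.32 to 14.1 in control and TGFβ1FKO libraries.

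Of the group 9 genes, *Hoxb9* was the most abundant, with 551.4, 585.4, 787.3 and 488.9 normalised counts in control and 630.5, 556.1, 831.2 and 510.8 in TGFβ1FKO libraries. The groups overlapped. *Hoxc9* ranged from 342.7 to 490.1 in control and from 373.9 to 441.9 in TGFβ1FKO fibroblasts, *Hoxd9* from 92.9 to 163.9 and from 90.5 to 120.8, and *Hoxa9* from 71.2 to 130.8 and from 81.8 to 132.9. The log2 fold changes of the 4 genes lay between -0.04 and 0.23.

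Beyond group 9, the control libraries differed among themselves more than the groups did. *Hoxa10* had 216.8, 86.1, 173.0 and 84.0 normalised counts in control replicates 1 to 4, and 159.1, 146.0, 151.1 and 167.3 in TGFβ1FKO replicates 1 to 4. *Hoxc10* had 400.0, 243.3, 465.7 and 302.2 in control and 417.6, 341.8, 441.8 and 391.1 in TGFβ1FKO libraries. Group 10 genes are known for the lumbar vertebrae. In both of them control replicates 1 and 3 were the higher control libraries and control replicates 2 and 4 the lower ones. The 4 TGFβ1FKO libraries lay between the lowest and the highest control library, and in *Hoxc10* TGFβ1FKO replicates 1 and 3 were above control replicate 1.

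Group 11 genes, which act in the sacral region and the forearm, were lower still. *Hoxa11* had 31.8, 7.44, 9.98 and 4.94 normalised counts in control and 21.3, 22.8, 15.8 and 24.4 in TGFβ1FKO libraries, and *Hoxc11* had 39.6, 6.38, 17.7 and 6.91 in control and 28.4, 17.6, 30.7 and 33.2 in TGFβ1FKO libraries. In both, control replicate 1 was the highest of all 8 libraries and control replicates 2 and 4 were the lowest. *Hoxc12* had 18.9, 4.25, 1.11 and 1.98 in control and 7.10, 10.4, 6.64 and 12.2 in TGFβ1FKO libraries, where a value of 1.11 is 1 read. Control replicate 1 was again the highest library.

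*Hoxc13*, a regulator of hair keratins, behaved otherwise. It had 70.5, 51.0, 76.5 and 78.0 normalised counts in control and 71.0, 101.5, 107.9 and 94.2 in TGFβ1FKO libraries. Replicates 2 to 4 of the TGFβ1FKO group lay above all control libraries, and TGFβ1FKO replicate 1 lay inside the control range. The log2 fold change was 0.44 ± 0.18 SE, with limma's p = 0.0332 before and 0.647 after adjustment over all genes, and the two-sided exact permutation test of 4 against 4 gave p = 0.0857. This was the lowest adjusted p of the 28 genes. Beside it, the keratinocyte marker *Dsp*, a desmosome protein, had 21.5, 19.1, 15.5 and 32.6 normalised counts in control and 37.5, 48.7, 56.5 and 36.6 in TGFβ1FKO libraries, without overlap (log2 fold change 1.01 ± 0.26 SE, limma adjusted p = 0.334). *Trp63* was at 0.57 ± 0.23 SE and *Itgb4* at -0.48 ± 0.16 SE, and the summed keratinocyte markers were 229.7 to 295.4 in control and 242.6 to 270.3 in TGFβ1FKO libraries. Their part in the *Hoxc13* values was not tested.

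**Figure D3:**
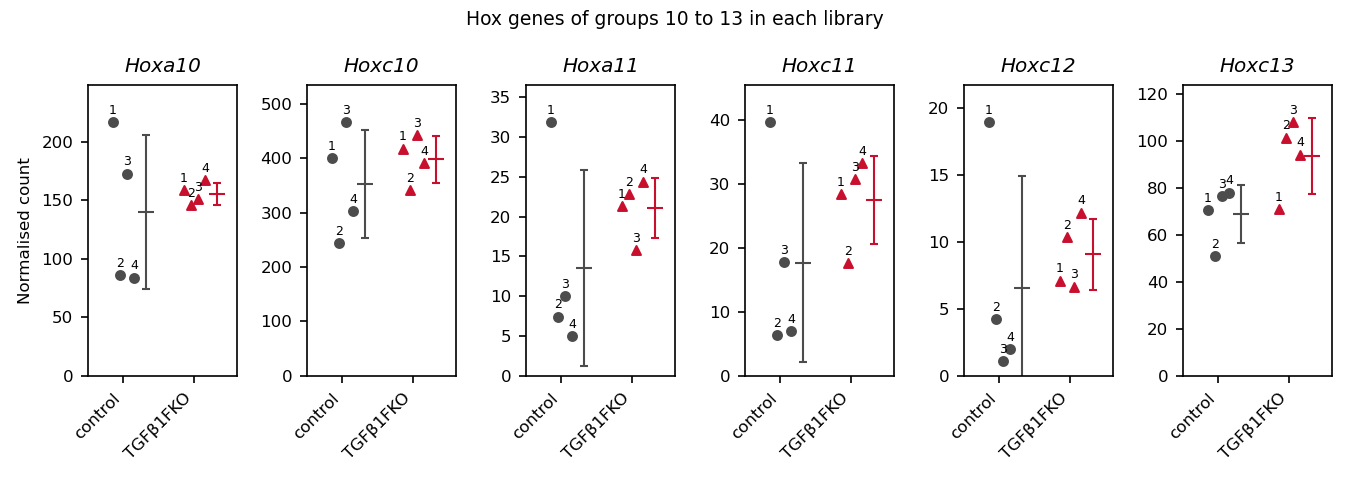
Normalised counts of the 6 genes of groups 10 to 13 in each library (grey circles, control; red triangles, TGFβ1FKO; numbers, replicate; dash and bar, mean ± SD, n = 4, the lower bar of *Hoxc12* being clipped at 0). Control replicate 1 is the highest library in *Hoxa10*, *Hoxa11*, *Hoxc11* and *Hoxc12*, and the 4 TGFβ1FKO libraries lie closer together than the control libraries in all genes except *Hoxc13*.

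The same was seen when each value was set against the mean of the 8 libraries on the log2(normalised count + 1) scale. Over the 5 genes of groups 10 to 12, the median deviation was 1.02, -0.71, -0.10 and -1.24 in control replicates 1 to 4, and 0.20, 0.05, 0.12 and 0.67 in TGFβ1FKO replicates 1 to 4. Over the 14 genes of groups 4 to 8, it stayed between -0.07 and 0.12 in all libraries. Single low genes of these groups swung more, such as *Hoxb5* with 1.40 in control replicate 1 and *Hoxa6* with -1.16 in TGFβ1FKO replicate 4. Over the 4 genes of groups 1 to 3, the median ran from -0.68 in TGFβ1FKO replicate 3 to 0.47 in control replicate 1. The grouping into groups 10 to 12 was made after the values had been seen, so these medians are a description. Control replicate 1 was the highest control library in 15 of 28 Hox genes and control replicate 4 the lowest in 11 of 28.

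**Figure D4:**
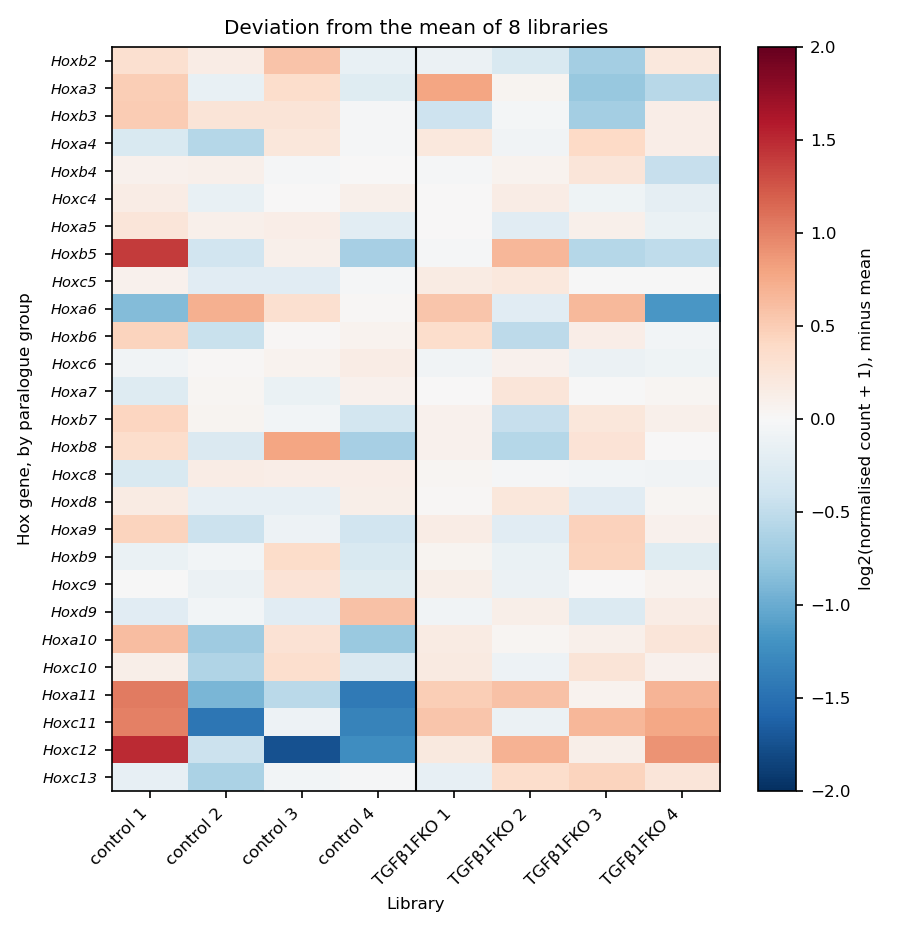
Deviation of the Hox genes of groups 2 to 13 (rows, by paralogue group) in each library (columns) from its mean over the 8 libraries, in log2(normalised count + 1). Rows of groups 4 to 9 are mostly pale, and the rows of *Hoxa10*, *Hoxa11* and *Hoxc11* are red in control replicate 1 and blue in control replicates 2 and 4. *Hoxc10* is paler in these libraries (0.12, -0.60 and -0.28). *Hoxc12* is red in control replicate 1 and bluest in control replicate 3 (-1.74).

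The SD on the log2 scale was larger in control than in TGFβ1FKO fibroblasts for 18 of 28 Hox genes (64.3%, against 56.9% of all genes) and for 9 of the 10 genes of groups 9 to 13. The median SD within groups was 0.30 for the Hox genes and 0.15 for all genes, at a median mean level of 89.9 and 345.4 normalised counts, so the Hox genes were the less abundant and more variable rows. Beside these differences between libraries, the summed Schwann cell markers were 2312, 1979, 2210 and 1510 normalised counts in control replicates 1 to 4, and the summed endothelial markers 825.0, 1081, 980.2 and 668.6. Most of the Schwann cell sum came from the marker whose groups overlapped. Control replicate 4, low for groups 10 to 12, was the lowest control library in both sums, while control replicate 2, also low for these genes, was not. Their part in the Hox values was not tested.

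The second question was whether the loss of fibroblast TGFβ1 changed the Hox pattern. No Hox gene was called: 0 of 28 passed an adjusted p under 0.05 with an absolute log2 fold change over 0.6 in limma's test, where 0.086% of all 15111 genes did. At an unadjusted p under 0.05 there were 2 Hox genes (7.14%), *Hoxb3* and *Hoxc13*, near the 7.46% of all genes. The groups did not overlap in 0 of 28 Hox genes, against 3.79% of all genes. edgeR's quasi-likelihood test on the reads recovered from the table also called 0 Hox genes, with 1 at an unadjusted p under 0.05 (7.46% of all genes), and so did DESeq2's test against 0, with 1 (6.58% of all genes). DESeq2's test against 0.6 called 0 Hox genes, with 0 at an unadjusted p under 0.05 (0.39% of all genes).

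Upward and downward differences were even in number. The log2 fold change was above 0 in 14 Hox genes and below 0 in 14, with a median of 0.0012, where the median of all genes was 0.0031. For 14 genes the 95% confidence interval lay within -0.6 to 0.6, the size that the call required, among them *Hoxc4*, *Hoxc5*, *Hoxc6*, *Hoxc8*, *Hoxc9*, *Hoxc10*, *Hoxb9* and *Hoxd8*. The interval was wider for other genes, from -0.07 to 1.89 for *Hoxa11* and from -0.38 to 2.29 for *Hoxc12*, so differences of over 0.6 were not left out for them. For *Hoxa11* the SD on the log2 scale was 1.07 in control and 0.26 in TGFβ1FKO fibroblasts.

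Along the axis, the counts of signs differed between the head end and the tail end. The difference was below 0 in 3 of 4 genes of groups 1 to 3 (median -0.34), below 0 in 10 of 14 genes of groups 4 to 8 (median -0.06), and above 0 in 9 of 10 genes of groups 9 to 13 (median 0.26). The sign of *Hoxa6*, *Hoxb4* to *Hoxb9*, *Hoxc9*, *Hoxd8* and *Hoxd9* turned when single libraries were left out. *Hoxa3*, *Hoxb2* and *Hoxb3*, all below 0, share 27.1, 27.3 and 52.9% of their exon bases with other annotated genes. All 6 genes of groups 10 to 13 were above 0, from 0.21 for *Hoxc10* to 0.95 for *Hoxc12* (median 0.67). These genes share libraries and are not independent of each other, none of them passed the test, and the split at group 10 was made after the values had been seen. The median of the 6 genes depended on the method, since it was 0.40 in edgeR's test and 0.43 in DESeq2's test, which compare mean counts and not means of log values. It also depended on control replicate 1. Without this library the median was 0.97, and 7 Hox genes had an unadjusted p under 0.05 in limma's test, where 7.09% of all genes had one. Of these, *Hoxa9*, *Hoxa10*, *Hoxa11*, *Hoxc11*, *Hoxc12* and *Hoxc13* lay above 0. *Hoxc8*, for which control replicate 1 was the lowest of all libraries, lay below 0. The lowest adjusted p in limma's test was 0.262 (*Hoxa11*, log2 fold change 1.41), and 0 were called. Without control replicate 4 the median was 0.55, and without control replicate 2 it was 0.46, with 0 Hox genes at an unadjusted p under 0.05, where 8.34% of all genes had one.

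**Figure D5:**
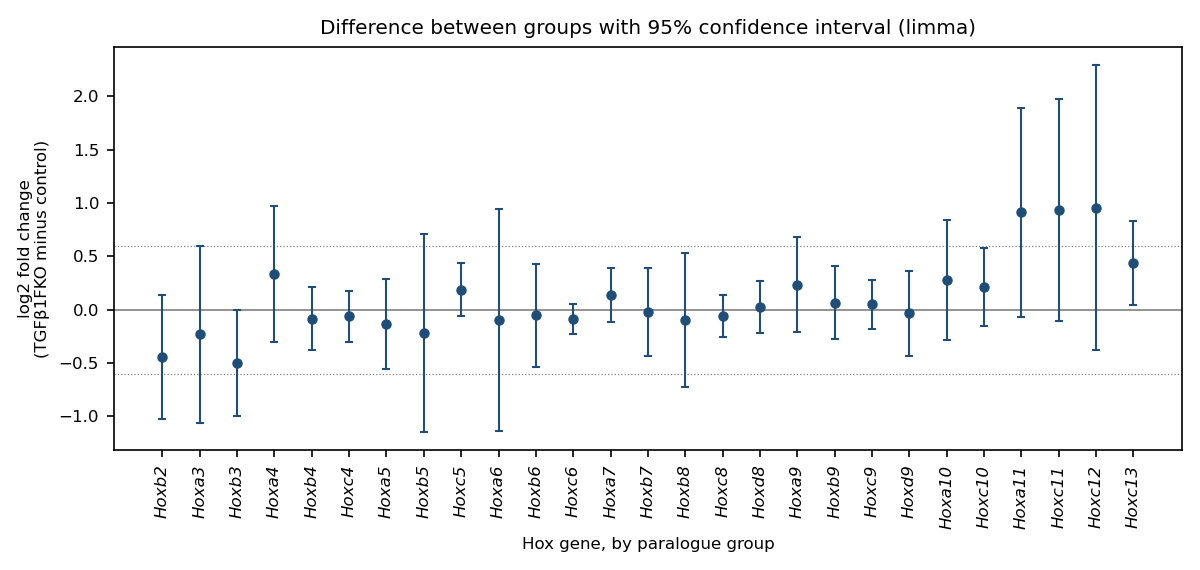
log2 fold change (TGFβ1FKO minus control) of the Hox genes of groups 2 to 13, each with its 95% confidence interval from limma, ordered by paralogue group; dotted lines mark -0.6 and 0.6. The intervals of *Hoxb3* (-1.00 to -0.003) and *Hoxc13* (0.04 to 0.83) leave out 0 before adjustment, and those of *Hoxa11*, *Hoxc11* and *Hoxc12* are the widest on the upper side.

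By cluster, HoxB was the most one-sided: 7 of its 8 genes were below 0 (median -0.09), and *Hoxb9* was above it. The direction of *Hoxb4*, *Hoxb5*, *Hoxb6*, *Hoxb7*, *Hoxb8* and *Hoxb9* turned when single libraries were left out. *Hoxb2* and *Hoxb3*, whose direction held, share exon bases with *Hoxb3os*. HoxA had 6 of 9 and HoxC 6 of 9 genes above 0 (medians 0.14 and 0.19), and the genes of HoxD were split (*Hoxd8* 0.02, *Hoxd9* -0.04). Of the 22 other genes inside the clusters or within 200 kb of them, 0 were called and 4 had an unadjusted p under 0.05, where 7.46% of all genes did. These 4 were *Igf2bp1* (log2 fold change 0.71), *Mrpl23-ps1* (-1.06), *Hotairm1* and *Hoxb3os*. *Hotairm1* and *Hoxb3os* also belong to the list described next.

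A list of noncoding and antisense genes of the clusters was looked at next. *Hotairm1*, a noncoding RNA of HoxA, had 41.3, 35.1, 35.5 and 26.7 normalised counts in control and 26.4, 10.4, 29.1 and 22.2 in TGFβ1FKO libraries (log2 fold change -0.71 ± 0.31 SE, limma adjusted p = 0.654). Of the 6 genes of this list with a row, 0 were called, and 2, *Hotairm1* and *Hoxb3os* (-1.48 ± 0.66 SE, limma adjusted p = 0.658), had an unadjusted p under 0.05. Of all genes, 7.46% had one. *Hoxb5os* had 25.8 normalised counts in control replicate 1 and 2.96 to 5.54 in the other control libraries, the library in which *Hoxb5* was also the highest. The 2 genes share exon bases.

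HoxB also holds the hairpin of miR-196a, a microRNA known to repress *Hoxb8* and other Hox messages. Its mature sequence, from RefSeq on GRCm38.p6 (chr11:96265187-96265208, plus strand), is shown with the seed, bases 2 to 8, in capitals.
mmu-miR-196a-5p: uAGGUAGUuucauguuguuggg
The hairpin gene *Mir196a-1* had 18.1, 24.4, 25.5 and 26.7 normalised counts in control and 26.4, 24.9, 24.9 and 22.2 in TGFβ1FKO libraries (log2 fold change 0.06 ± 0.22 SE). These are reads of polyadenylated RNA over the hairpin and do not measure the mature microRNA.

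The proteins that work with Hox factors or set their expression were described from lists. Hox proteins bind DNA together with TALE homeodomain cofactors, and 0 of 11 of these were called (median log2 fold change 0.03, 5 lower and 6 higher). *Pbx2*, one of the 2 highest per kb, had 523.8 to 584.7 normalised counts in control and 504.9 to 590.9 in TGFβ1FKO libraries. *Pknox2* had 158.3, 191.2, 204.0 and 127.4 in control and 137.9, 61.1, 137.8 and 111.9 in TGFβ1FKO libraries (log2 fold change -0.64 ± 0.24 SE, limma adjusted p = 0.599).

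Polycomb proteins keep silent Hox genes closed, and trithorax proteins keep active ones open. Of 24 Polycomb genes 0 were called (median 0.02), with *Phf1* at -0.22 ± 0.09 SE and *Jarid2* at 0.26 ± 0.11 SE on the log2 scale having an unadjusted p under 0.05. Of all genes, 7.46% had one. *Rbbp7* and *Rbbp4* were the highest of this list per kb, with log2 fold changes of -0.02 and 0.0031. Of 14 trithorax genes 0 were called and 0 had an unadjusted p under 0.05 (median 0.07). *Men1*, one of the 2 highest of these per kb, had 865.9 to 907.0 normalised counts in control and 789.6 to 854.4 in TGFβ1FKO libraries, without overlap, at a log2 fold change of -0.10 ± 0.06 SE.

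Retinoic acid is the signal that opens the head-end Hox genes in the embryo. Of 14 genes of its synthesis, binding, breakdown and receptors 0 were called, and 11 lay below 0 (median log2 fold change -0.18). *Aldh1a2*, a synthesis enzyme, had 37.9, 44.6, 15.5 and 25.7 normalised counts in control and 22.3, 12.4, 19.9 and 12.2 in TGFβ1FKO libraries (log2 fold change -0.79 ± 0.34 SE, limma adjusted p = 0.654). *Crabp1*, a retinoic acid binding protein and the most abundant of the list per kb, had 4637 in control replicate 1, 2688 to 3230 in the other control libraries and 2460 to 3260 in TGFβ1FKO libraries. The receptor *Rxra* had 2398 to 2948 and 2587 to 2817.

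Other regulators of body region were described in the same way. Regulators of trunk dermis and somites were abundant, with *Tbx15* at 3631 to 4221 normalised counts in control and 3852 to 4035 in TGFβ1FKO libraries and *Twist1* at 2278 to 2960 and 2547 to 2965. Of 15 of them 0 were called (median 0.04), and *Meox2* had 121.3, 253.9, 255.0 and 173.8 in control and 139.9, 72.5, 146.1 and 93.1 in TGFβ1FKO libraries (log2 fold change -0.82 ± 0.26 SE, limma adjusted p = 0.525). Of the limb regulators, 8 had a row and 0 were called. *Shox2* and *Tbx3* were the highest of these per kb.

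Regulators of head and face mesenchyme, which in the embryo forms in front of the Hox domains, were low. Of these, 7 of 20 had a row, and 0 were called. *Lhx8*, one of the 2 highest per kb, had 45.7 to 107.4 normalised counts over all libraries. *Tfap2a* had 25.0, 23.4, 25.5 and 10.9 in control and 6.08, 3.11, 14.1 and 3.32 in TGFβ1FKO libraries (log2 fold change -1.68 ± 0.45 SE, limma adjusted p = 0.426). It is known from neural crest and epidermis. Of 19 genes of a list of the wider surroundings of the Hox clusters 0 were called (median -0.05), and *Hnrnpa3*, which lies beyond 200 kb of HoxD, had 420.7 to 464.6 in control and 353.8 to 407.7 in TGFβ1FKO libraries, without overlap, at a log2 fold change of -0.20 ± 0.08 SE with a limma adjusted p of 0.599.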

How the data were processed

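RNA of 8 libraries was sequenced by the authors as non-directional paired reads. According to the submitters' processing notes and the methods, reads were aligned with HISAT2 2.0.5 to GRCm38 and normalised with DESeq2 1.42.0, and featureCounts 1.5.0-p3 is listed. Genes with fewer than 40 reads over all libraries had been left out. The deposited signal is the normalised count with 0.5 added. The authors' deposited log2 fold changes, scores (standard error and Wald statistic) and p-values were not used.

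The 0.5 was subtracted, which gave whole reads for 100% of values (tolerance 0.1), and log2(normalised count + 1) was compared with limma 3.58.1 (R 4.3.3, mean-variance trend, Benjamini-Hochberg over 15111 genes). Fold changes are on this scale, where the added 1 makes those of low genes smaller than without it. The recovered reads were also tested with edgeR 4.0.16 and DESeq2. On simulated data for this comparison with 15111 genes, limma called 98% of 100 genes changed by 1 on the log2 scale. Of those changed by 2, it called 100%. The changed genes of the simulation were drawn only from those with a mean count of at least 50. Their simulated spread followed from the mean count alone. The rates thus do not cover low genes or genes of larger spread, and 11 Hox genes had a mean normalised count under 50. In limma's test of the real data, *Hoxa11*, *Hoxc11* and *Hoxc12* had SEs of 0.45, 0.48 and 0.62. The rates therefore do not tell how often a change of 1 in such Hox genes would be called. Exon lengths came from GENCODE M21, which held 15098 of the genes.

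Levels, shares and their order were described without a test. Hox genes were given an exact permutation test (two-sided) as well, printed for those at an unadjusted p under 0.05. No such test is reported for the list and marker genes. Hox genes are named singly, and of the lists those called, those at an unadjusted p under 0.05 and the 2 highest per kb; some genes and sequences that these rules take are not reported here. A gene without overlap that is named beside its list was chosen after its values were seen. The members and lists were chosen with earlier results of these data known. Alternatives covered the test, scaling, filter, pseudocount, thresholds, replicate block, gene length and each library left out. The floor of 3 reads covers counting error only. No library was a copy of another: within groups, chi-square over degrees of freedom was 4.89 or more for each pair.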

Additional observations from a re-analysis of the deposited data

Results flagged for a closer look

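Among the 56 sets of 4 libraries that the 28 Hox genes gave, 1 held a library far from the others. *Hoxc8* had 902.4 normalised counts in control replicate 1 and 1218 to 1238 in the other control libraries. Chance gives about 1 in 20 such sets, here 2.8, so a single one is below that number. Control replicate 1 is also the library with the highest *Hoxa11*, *Hoxc11* and *Hoxc12*.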

How the results depend on the processing

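No Hox gene and no gene of the 9 pathway lists was called under any of the alternatives run. The number of all genes called moved from 13 to 20 with edgeR, 56 with DESeq2 against 0, 3 with at least 10 reads in every library, 25 at an adjusted p under 0.1 and 31 with the replicate block, and lay between 5 and 32 with each library left out (32 without control replicate 4). With the block 2 Hox genes had an unadjusted p under 0.05, *Hoxc11* and *Hoxc13*, whereas *Hoxb3* no longer did. Of all genes, 8.21% had one with the block. Libraries with the same number were correlated at 0.16, -0.13, 0.05 and 0.16 in their deviations and did not all correlate best with their own number, so the numbers were not taken as a pairing. TMM scaling shifted the median of all genes by -0.0052.

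The direction of *Hoxa6* turned in edgeR's test (0.011, against -0.10). With each library left out, the direction turned for genes with small differences, among them those whose log2 fold changes then ranged from -0.41 to 0.27 for *Hoxa6*, -0.18 to 0.050 for *Hoxb4*, -0.48 to 0.21 for *Hoxb5*, -0.21 to 0.11 for *Hoxb6*, -0.15 to 0.13 for *Hoxb7*, -0.34 to 0.15 for *Hoxb8*, -0.075 to 0.20 for *Hoxb9*, -0.025 to 0.15 for *Hoxc9*, -0.045 to 0.11 for *Hoxd8* and -0.12 to 0.15 for *Hoxd9*. The median of groups 10 to 13 ranged from 0.46 to 0.97 with each library left out and was 0.28 over the 3 genes with at least 10 reads in every library. This median and its alternatives were chosen after seeing the data.

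The length of the longest transcript in place of merged exons moved the share of HoxC to 67.8% in control and 67.3% in TGFβ1FKO, that of groups 9 to 13 to 28.1% and 30.7%, that of groups 6 to 9 in TGFβ1FKO to 77.0% and that of groups 10 to 13 in TGFβ1FKO to 12.4%. With no length correction the last 2 were 75.1% and 12.4%. Low read numbers limit *Hoxa3*, *Hoxa4*, *Hoxa6*, *Hoxa11*, *Hoxc11* and *Hoxc12*, each with under 10 reads in at least 1 library.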
